A study of Mus musculus with 6 samples.

Results

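Bicc1 (Bicaudal C1) and 8 genes whose products work with it were followed across the 6 libraries of the series. The 9 genes were listed by name from known biology: Bicc1, Anks3, Anks6, Nek8, Invs, Cnot1, Cnot3, Dicer1 and Ago2. All 9 were found among the 24389 Ensembl gene identifiers of the files by matching identifiers to mouse symbols. The libraries were made from dorsal pancreas of E13.5 mouse embryos, 3 from Bicaudal C1 knockout (KO) and 3 from wild-type (WT) embryos, and every embryo was of a mixed C57BL/6 and ICR background. The sources used here do not give the KO allele, nor whether a library came from 1 embryo or from a pool. The comparison asks how the messengers of the protein and RNA-silencing partners of Bicc1 stand in the KO pancreas.

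Bicc1 is an RNA-binding protein with KH domains, which bind RNA, and a SAM domain, through which it polymerises. Its partners ANKS3 and ANKS6 are ankyrin-repeat proteins with SAM domains of their own. ANKS6 joins the kinase NEK8 and inversin (Invs) in a segment at the base of the primary cilium called the inversin compartment, and loss of these proteins causes cystic kidneys. In Drosophila, Bicaudal C recruits the CCR4-NOT complex, which shortens the poly(A) tails of messengers, with Cnot1 as its scaffold and Cnot3 as a regulatory subunit. Dicer1 cuts microRNA precursors, and Ago2 is the Argonaute that carries the mature microRNA and can cleave its target. In mouse kidney, Bicc1 has been described as opposing the repression of Pkd2, the polycystin-2 gene, by microRNAs of the miR-17 family.

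The seed that this family shares is shown here because Pkd2, the messenger it is reported to act on, and Bicc1 itself both carry a match to it. Mature sequences are from RefSeq (GRCm38.p6), 5′ to 3′, with the seed (bases 2 to 8) in capitals. Target sites are from GENCODE transcripts (GRCm38), with the bases complementary to the seed in capitals.
mmu-miR-17-5p: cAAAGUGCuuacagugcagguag
mmu-miR-20a-5p: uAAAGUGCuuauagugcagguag
mmu-miR-106b-5p: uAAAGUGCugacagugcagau
Pkd2 site: tataattttctGCACTTTaatttatttta
Bicc1 site: gaggtcttccaGCACTTTacacggtctag
The match GCACTTT, searched on the transcript strand, began 133 bases after the stop codon in Pkd2 and 491 bases after it in Bicc1. Among the other 8 genes it occurred once in Invs and once in Ago2, both beyond the first 1000 bases of the 3′ UTR, and not in Anks3, Anks6, Nek8, Cnot1, Cnot3 or Dicer1. Of 6690 tested genes with a 3′ UTR of at least 1000 bases, 10.1% had the match within the first 1000 bases. A match is a run of letters and does not show that a microRNA acts there. The microRNAs themselves were not measured.

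Values are the authors' deposited expression values per gene, whose unit and normalization are not stated. They have a floor of 0.01, and their sums ranged from 689782 to 716255 in KO and from 674295 to 716119 in WT libraries. These sums are not read totals, so the depth behind each value is unknown, and different genes may not be on 1 scale. Each member was therefore compared only between libraries, and a sum over marker genes follows mostly its highest gene. Marker genes of pancreatic epithelium (Pdx1, Ptf1a, Sox9, Nkx6-1, Cpa1, Epcam and Cdh1) were present in all libraries, with sums of 403.7 to 582.4 in KO and 440.8 to 522.8 in WT. The groups overlapped in this sum, of which Cpa1 made up the most, and in each of the 7 genes, of which 5 had a lower mean in KO. Markers of mesenchyme, blood, liver and spleen primordium also overlapped in their sums. The sum over Pecam1, Cdh5 and Kdr, markers of endothelium, was 71.8 to 91.4 in KO and 62.7 to 64.1 in WT. That over Sox2, Cdx2 and Barx1, markers of stomach and intestine, was 3.83 to 6.09 in KO and 2.29 to 3.50 in WT. Of the 3 genes Barx1 alone had groups that did not overlap (2.90 to 5.04 in KO, 1.18 to 2.70 in WT). Sox2 and Cdx2 went the other way, with means of 0.883 and 0.0241 in KO and 1.02 and 0.0353 in WT. Nkx2-5, 1 of 2 spleen primordium markers, was 0.316 to 0.770 in KO and 0.0313 to 0.132 in WT. The part of these tissues in the results was not tested. In bulk tissue, fewer cells of a type and less RNA per cell cannot be told apart. The first principal component (57.3% of the variance) set KO 1, KO 2 and WT 3 against KO 3, WT 1 and WT 2, and so did not follow genotype. The rank correlation of GC content with a gene's deviation, across genes and so not over independent replicates, was 0.40 to 0.61 in the first 3 libraries and -0.66 to -0.19 in the others. Differences are therefore also given within each of these sides where they bear on a result.

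Bicc1 itself (ENSMUSG00000014329, chromosome 10) was low in every KO library. Its value was 3.96, 4.91 and 4.48 in KO 1, KO 2 and KO 3, against 19.7, 19.5 and 18.2 in WT 1, WT 2 and WT 3. The groups lay far apart, and the KO values were not at the floor but averaged 23.3% of the WT mean. Where in the gene this signal lies cannot be read from 1 value per gene. Tests were made with limma on log2(value + 1) for the 13911 genes with a mean of at least 1, and q stands here for limma's p adjusted over these genes by the Benjamini-Hochberg method. By this test Bicc1 fell by 1.89 log2 units (SE 0.087, q = 0.00067). It had the lowest p of all tested genes, and the second lowest log2 change. The change was -1.83 on the side of KO 1, KO 2 and WT 3 and -1.91 on the side of KO 3, WT 1 and WT 2, so it was about as large on either side of the first component. The KO mean was above the WT mean in Nkx6-1 and Cpa1, and below it in the other 5 pancreatic epithelial markers. The lowest against WT was Ptf1a, at 3.75 ± 0.545 in KO and 5.02 ± 0.952 in WT (SD over 3 libraries), or 74.8%, with Sox9 at 84.2%, and the part of the epithelial share in the Bicc1 value was not tested.

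Genes past the threshold were rare. A q under 0.05 was reached by 2 of the 13911 tested genes (0.0144%), both lower in KO, and 10.3% had an unadjusted p under 0.05. The count was 7 without KO 2, and 1 without KO 1, KO 3, WT 1 or WT 3, each time including Bicc1. Among the 9 genes, Anks3 and Anks6 averaged under 1 over the 6 libraries and so were not in this fit. Of the 7 in it, Bicc1 passed and the other 6 did not.

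**Figure D1:**
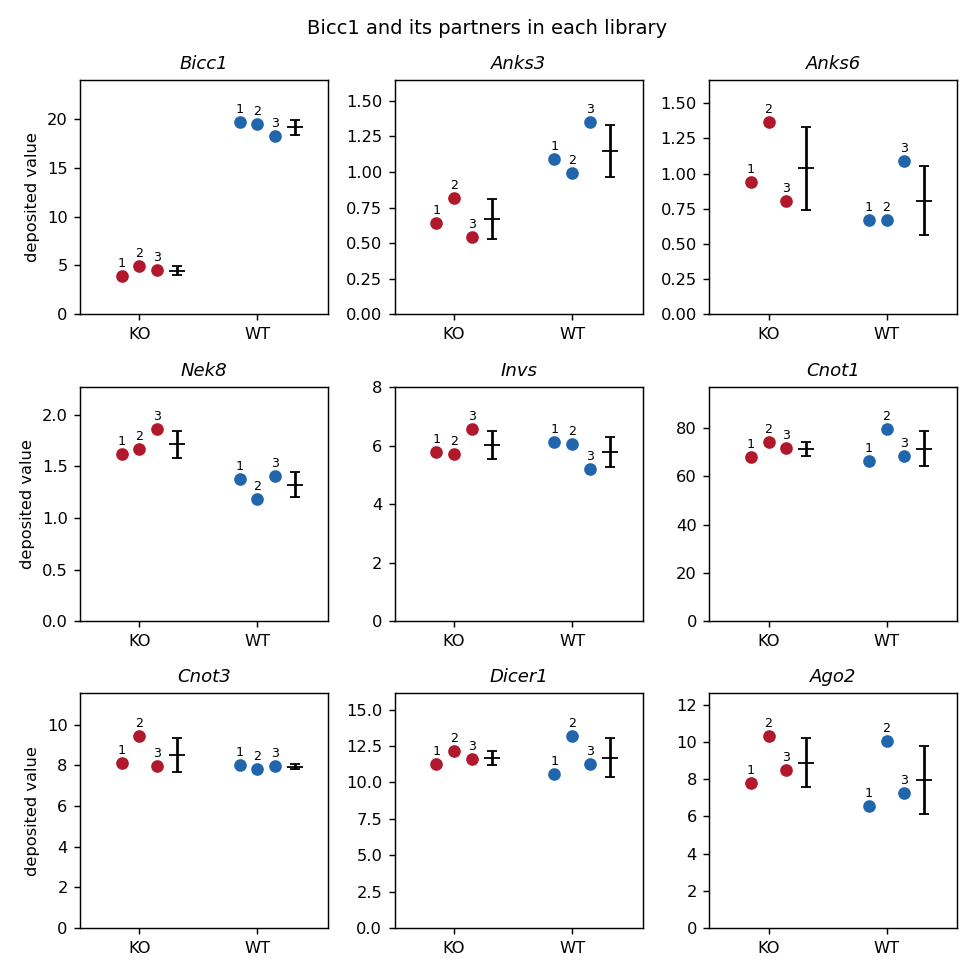
Deposited value (linear axis from 0) of the 9 genes in each KO and WT library. Points are libraries, numbered by replicate, and the bar beside each group is the mean ± SD (n = 3). Bicc1 lies between 3.96 and 4.91 in KO and between 18.2 and 19.7 in WT. Apart from Bicc1, only Anks3 (lower in KO) and Nek8 (higher in KO) have groups that do not overlap. Of all 24389 genes, 13.9% have such groups.

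Both SAM domain partners were under the filter on low values. Anks3 (ENSMUSG00000022515, chromosome 16), which binds Bicc1 directly, was 0.640, 0.819 and 0.543 in KO 1, KO 2 and KO 3, against 1.09, 0.994 and 1.35 in WT 1, WT 2 and WT 3. The 3 KO libraries were the 3 lowest, and their mean of 0.667 ± 0.140, against 1.15 ± 0.185 in WT (SD, n = 3 per genotype), came to 58.2%. The log2 change was -0.36 over all libraries, -0.45 on the side of KO 1, KO 2 and WT 3, and -0.40 on the other side. With no filter on low values limma gave Anks3 an unadjusted p of 0.0071 and a q of 0.494, so it did not pass. In that fit 1 of 24389 genes (0.0041%) passed. Of these 24389 genes, 13.9% had groups that did not overlap. The exact two-sided permutation test gave p = 0.1, the smallest that 3 against 3 libraries allow. Because the scale adds 1 to values near 1, the change is understated. It was -0.71 with a pseudocount of 0.1 and -0.52 after a correction for GC content.

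Anks6 (ENSMUSG00000066191, chromosome 4), the partner in the inversin compartment, had overlapping groups. Its value was 0.942, 1.37 and 0.805 in KO 1, KO 2 and KO 3, against 0.668, 0.667 and 1.09 in WT 1, WT 2 and WT 3. The 3 highest libraries were KO 2, WT 3 and KO 1, which lie on the same side of the first component. At 60.1% its longest transcript had the highest GC content of the 9 genes. The log2 change was 0.17 over all libraries, 0.33 with a pseudocount of 0.1, and 0.036 and 0.11 within the sides. After GC correction it was -0.080, so its direction was not stable. With no filter, q was 0.665 and the 95% interval ran from -0.16 to 0.51.

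Nek8 (ENSMUSG00000017405, chromosome 11), the ciliary kinase, was 1.62, 1.67 and 1.87 in KO 1, KO 2 and KO 3, against 1.38, 1.18 and 1.41 in WT 1, WT 2 and WT 3. The 3 KO libraries were the 3 highest, a pattern that 7.67% of the tested genes had, and the KO mean was 129.5% of the WT mean. The log2 change of 0.22 (SE 0.083) had an unadjusted p of 0.029 and a q of 0.469 in limma, so Nek8 did not pass. The change was 0.13 on the side of KO 1, KO 2 and WT 3 and 0.33 on the other. With a pseudocount of 0.1 it was 0.35. It shrank to 0.039 after GC correction, and the Nek8 transcript has 56.8% GC.

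Invs (ENSMUSG00000028344, chromosome 4) encodes inversin, the protein after which the compartment is named. It was 5.79, 5.72 and 6.58 in KO 1, KO 2 and KO 3, against 6.12, 6.06 and 5.20 in WT 1, WT 2 and WT 3. The highest library was KO 3 and the lowest WT 3, and the groups overlapped. The log2 change was 0.049, with a 95% interval from -0.16 to 0.26 and q = 0.815, and it turned negative without KO 3 (-0.0059) or WT 3 (-0.015). Exons of Tex10 on the opposite strand cover 1.98% of the exonic bases of Invs in the reference annotation, and libraries from this kit carry no strand.

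**Figure D2:**
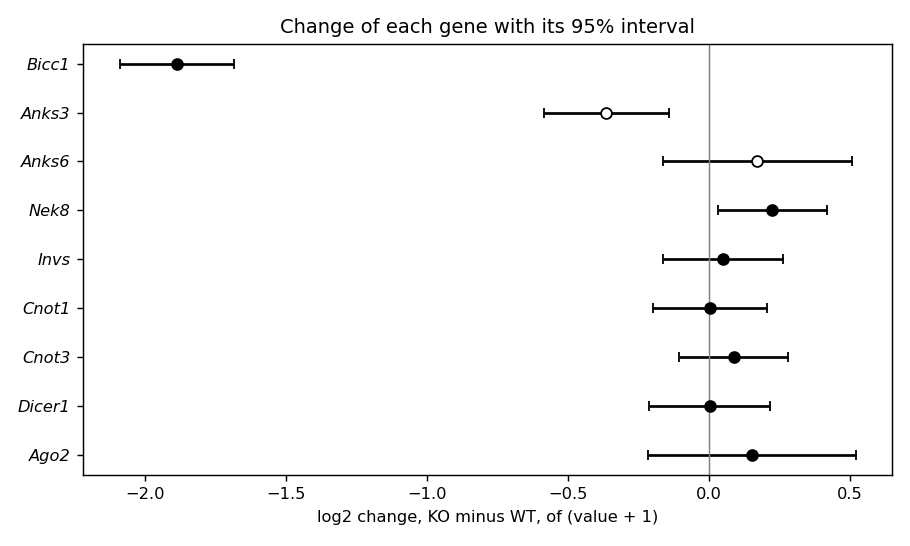
Log2 change of (value + 1), KO minus WT, of the 9 genes. Points are estimates and bars 95% intervals from limma; filled points are genes in the filtered fit over 13911 genes, and the open points, Anks3 and Anks6, are from the fit with no filter. The interval of Bicc1 runs from -2.09 to -1.69, and those of Anks6, Invs, Cnot1, Cnot3, Dicer1 and Ago2 include 0.

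None of the RNA-silencing partners passed the test, and the KO and WT values of each overlapped. Cnot1 (ENSMUSG00000036550, chromosome 8), the scaffold of CCR4-NOT, was 68.2, 74.3 and 71.8 in KO 1, KO 2 and KO 3, against 66.3, 79.7 and 68.4 in WT 1, WT 2 and WT 3. The KO range lay inside the WT range. Its log2 change of 0.0025 had q = 0.991 and a 95% interval from -0.20 to 0.20, which on this scale is 87.1% to 115% of WT. The sign turned under each of 3 other scalings of the libraries, with values from -0.0114 to -0.0051.

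Cnot3 (ENSMUSG00000035632, chromosome 7) was 8.10, 9.45 and 7.97 in KO 1, KO 2 and KO 3, against 8.03, 7.79 and 7.96 in WT 1, WT 2 and WT 3. KO 2 alone stood above the other libraries. The log2 change of 0.088 (95% interval -0.11 to 0.28, q = 0.635) was 0.018 without KO 2. Exons of Leng1 on the opposite strand cover 6.07% of its exonic bases, so its value can include reads of Leng1.

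Dicer1 (ENSMUSG00000041415, chromosome 12) was 11.2, 12.2 and 11.6 in KO 1, KO 2 and KO 3, against 10.6, 13.2 and 11.3 in WT 1, WT 2 and WT 3. Again the KO range lay inside the WT range. The log2 change was 0.0024, with q = 0.991 and an interval from 86.3% to 116% of WT on this scale, and the same 3 scalings turned its sign (-0.0105 to -0.0048).

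Ago2 (ENSMUSG00000036698, chromosome 15) was 7.79, 10.3 and 8.51 in KO 1, KO 2 and KO 3, against 6.57, 10.1 and 7.28 in WT 1, WT 2 and WT 3. The groups overlapped, with means of 8.89 ± 1.32 in KO and 7.97 ± 1.84 in WT (SD over 3 libraries) and q = 0.667. The 95% interval of the log2 change of 0.15, from -0.22 to 0.52, was the widest of the 7 tested members. The change was 0.31 without WT 2, 0.039 without WT 1 and 0.048 without KO 2. Cnot1, Dicer1 and Ago2 shared an order of libraries within each genotype: KO 2 was the highest KO library, KO 1 the lowest, WT 2 the highest WT library and WT 1 the lowest. In each of these genes the distance from WT 1 to WT 2 exceeded the difference between the group means. The shared order was noted after the values were seen, and how many of all tested genes have it was not counted.

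The rest of each pathway was read from 6 gene lists, described by counts beside the same counts over all 13911 tested genes, of which 16.4% had groups that did not overlap. In that background 1067 genes lay wholly higher and 1220 (8.77%) wholly lower in KO, and the middle log2 change was 0.014. The mean of log2(value + 1), which the counts below compare, was above that of WT in 7448 of these genes and below it in 6463. No member of any of the 6 lists passed limma over all genes. The lists held 85 tested genes, of which 9 had an unadjusted p under 0.05, beside 1426 of 13911 (10.3%) in the background.

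Of 10 genes of the ANKS and inversin compartment list, 7 were tested. The KO mean was above the WT mean in 4 and below it in 3, and Nek8 was the only one with an unadjusted p under 0.05. Their median change was 0.034, but -0.010 after GC correction and -0.0059 without KO 3. Nek7, a kinase bound by ANKS3, was 22.7 ± 1.69 in KO, against 24.1 ± 2.69 in WT. Nek9, a related kinase, was 48.9 ± 4.34 in KO, against 47.2 ± 1.80 in WT (SD, n = 3 per genotype). Both had overlapping groups, q of 0.707 and 0.798, and a direction that turned after GC correction. Nphp4, which encodes nephrocystin-4, was the remaining gene of the list under the filter, between 0.282 and 0.597 in KO and between 0.263 and 0.355 in WT.

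All 18 genes of the list of CCR4-NOT and other deadenylases were tested. The KO mean was above the WT mean in 8 and below it in 10, with a median change of -0.084. Cnot7, a catalytic deadenylase subunit, was 58.5, 57.4 and 61.3 in KO 1, KO 2 and KO 3, against 71.7, 70.5 and 62.1 in WT 1, WT 2 and WT 3. Its groups did not overlap, though KO 3 and WT 3 were close. The log2 change of -0.20 did not pass (q = 0.469). It was -0.097 on the side of KO 1, KO 2 and WT 3, -0.21 on the other and -0.096 after GC correction. Cnot9, named after its values were seen, was the other member with groups that did not overlap, at 20.8 ± 0.350 in KO and 22.1 ± 0.580 in WT (SD over 3 libraries, q = 0.557), which made 11.1% of the list against 16.4% of all tested genes. The other catalytic subunits, chosen after their values were seen, were Cnot6 (169.7 ± 8.33 in KO, 187.8 ± 13.9 in WT), Cnot6l (35.3 ± 2.47 in KO, 40.1 ± 3.48 in WT) and Cnot8 (14.1 ± 0.790 in KO, 13.4 ± 0.468 in WT, SD over 3 libraries). None of the 3 passed, with q of 0.484, 0.474 and 0.683, and the groups of each overlapped. Tob1, an adaptor that brings CCR4-NOT to messengers, was 13.3 ± 2.73 in KO, against 16.5 ± 2.20 in WT (q = 0.473). After GC correction the median of the list was -0.024.

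In the list of decapping and processing bodies 11 of 12 genes were tested, all but Dcp1b. The KO mean was the higher one in 5 and the lower one in 6, with a median change of -0.0029. This median was not stable in direction, at 0.047 without KO 1, 0.048 without KO 2, 0.052 without WT 1 and 0.014 after GC correction. Edc4, a scaffold of the decapping complex, was 117.9, 149.9 and 103.9 in KO 1, KO 2 and KO 3, against 71.5, 75.9 and 114.8 in WT 1, WT 2 and WT 3. WT 3 lay among the KO libraries, so the groups overlapped. Its log2 change of 0.51 (q = 0.469) did not pass, and was 0.73 without WT 3 and 0.37 without KO 2. Lsm14b, a processing body component, was 34.4 ± 2.05 in KO, against 30.8 ± 1.63 in WT (SD over 3 libraries), with groups that did not overlap and q = 0.473.

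In the microRNA list 19 of 21 genes were tested. The KO mean was above the WT mean in 14 and below it in 5, with a median change of 0.056. None of the 19 had groups that did not overlap, and none had an unadjusted p under 0.05. Mov10, a helicase found with Argonautes, was 7.78 ± 0.980 in KO, against 6.33 ± 1.32 in WT. Tarbp2, a partner of Dicer, was 11.9 ± 1.84 in KO, against 9.94 ± 2.79 in WT (SD over 3 libraries). Their q of 0.478 and 0.548 did not pass, and their log2 changes of 0.27 and 0.25 were 0.072 and 0.13 after GC correction. The other 3 Argonaute genes, chosen after their values were seen, had overlapping groups. Ago1 was 21.3 ± 0.212 in KO, against 20.3 ± 1.75 in WT, Ago3 was 1.18 ± 0.167 in KO, against 1.12 ± 0.218 in WT, and Ago4 was 20.1 ± 3.30 in KO, against 18.04 ± 2.08 in WT (SD over 3 libraries). The direction of Ago3 turned without WT 3 (-0.023). Lin28a and Lin28b, inhibitors of let-7 processing and the 2 genes of the list not tested, stayed under the filter in both genotypes.

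Of 25 other genes for RNA-binding proteins with KH or SAM domains, 24 were found and tested. The KO mean was above the WT mean in 10 and below it in 14. In 7 of them (29.2%, against 16.4% of all tested genes) the groups did not overlap, with 2 higher and 5 lower in KO. Pcbp3, a poly(C)-binding protein, was 11.5, 10.1 and 11.6 in KO 1, KO 2 and KO 3, against 8.38, 8.72 and 9.41 in WT 1, WT 2 and WT 3. Khsrp, a KH protein that promotes decay of messengers with AU-rich elements, was 17.5, 17.9 and 16.2 in the KO libraries, against 18.8, 20.7 and 21.4 in the WT libraries. Their log2 changes of 0.29 and -0.22 had the same q of 0.469 and did not pass. After GC correction they were 0.14 for Pcbp3 and -0.42 for Khsrp. The median change of the list was -0.066, and it was -0.0086 after GC correction and -0.012 without KO 2.

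**Figure D3:**
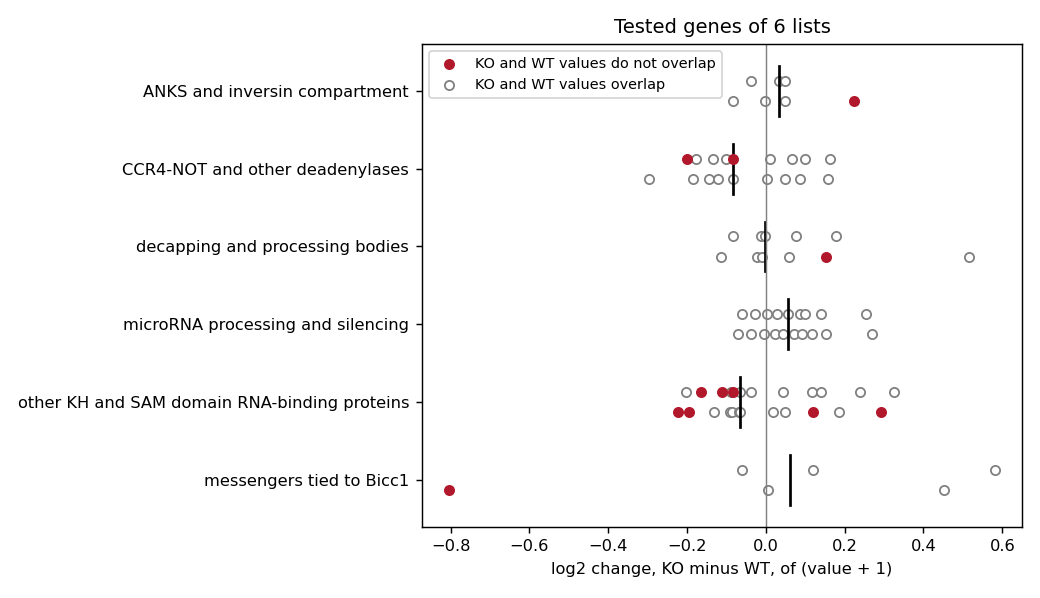
Log2 change of (value + 1), KO minus WT, of each tested gene in the 6 lists; filled points are genes whose KO and WT values do not overlap, open points those whose values overlap, and the vertical bar is the median. Medians lie between -0.084 and 0.062, and Pkd2, at -0.80, is the farthest point.

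The last list holds messengers and pathway genes tied to Bicc1 in the literature, of which all 6 were tested. Pkd2 was 5.11, 6.06 and 5.76 in KO 1, KO 2 and KO 3, against 10.7, 11.6 and 9.53 in WT 1, WT 2 and WT 3. The groups lay well apart, and the log2 change of -0.80 (SE 0.096) had the fifth lowest p of all tested genes. Its q of 0.129 did not pass. After GC correction q was 0.047, the lowest over 18 alternatives, of which the highest was 0.742. Adcy6 and Pkia, reported as messengers that Bicc1 represses, were 11.8 ± 2.0 and 10.8 ± 1.16 in KO, against 10.7 ± 0.442 and 11.3 ± 1.28 in WT (SD over 3 libraries). Their 95% intervals of the log2 change ran from -0.15 to 0.38 and from -0.31 to 0.19. The direction of both turned after GC correction, at -0.034 for Adcy6 and 0.039 for Pkia. These values are messenger levels, and translation and protein were not measured. Dand5, a Nodal antagonist whose messenger Bicc1 regulates in left-right patterning, was 1.08 ± 0.0614 in KO and 1.07 ± 0.0705 in WT, and its log2 change of 0.0052 turned negative under several settings, among them GC correction (-0.15). Pkd1, the polycystin-1 gene, was 20.1, 29.2 and 25.1 in the KO libraries, against 13.3, 20.3 and 15.3 in the WT libraries. Its groups overlapped, and its log2 change of 0.58 (95% interval 0.17 to 0.99) did not pass (q = 0.469). Over the 18 alternatives the change stayed positive, from 0.40 to 0.74, and its lowest q was 0.190.

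Genes whose pattern over the 6 libraries was close to that of Bicc1 were found by the root mean square difference of log2(value + 1), after each gene's own mean was subtracted. This measure was 0.33 for 4930533K18Rik, 0.49 for Ngp, 0.51 for Calcr and 0.52 for BC100530, where its median over all tested genes was 0.96. Each of them was lower in every KO library than in any WT library. Since the measure uses the same libraries as the comparison, it favours genes that are lower in KO.

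The uncharacterised gene 4930533K18Rik was 1.31, 1.58 and 1.57 in KO 1, KO 2 and KO 3, against 5.46, 4.38 and 5.06 in WT 1, WT 2 and WT 3. It fell in KO, with a log2 change of -1.26 and q = 0.015, and was the other gene past the threshold. Its q was 0.149 without KO 1, 0.0736 without KO 3, 0.150 without WT 1, 0.103 without WT 3, 0.205 with no filter and up to 0.742 over all alternatives. The reference annotation places 349 of its exonic bases (14.4%) within Bicc1 exons on the opposite strand, which is 4.69% of the exonic bases of Bicc1. Without strand the reads of these bases cannot be told apart.

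Calcr, the calcitonin receptor gene, was 7.96, 10.3 and 8.17 in the KO libraries, against 17.1, 17.1 and 16.4 in the WT libraries, with q = 0.117, or 0.027 without KO 2 and up to 0.819 under the other alternatives. Ngp, a gene of neutrophil granules, was 0.308 to 0.461 in KO and 1.34 to 5.13 in WT. BC100530 was 0.381 to 0.644 in KO and 1.80 to 6.47 in WT, and in both genes WT 3 was the highest WT library. Neither Ngp nor BC100530 passed, each with q = 0.469. Over the alternatives their lowest q was 0.132 for Ngp and 0.126 for BC100530.

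**Figure D4:**
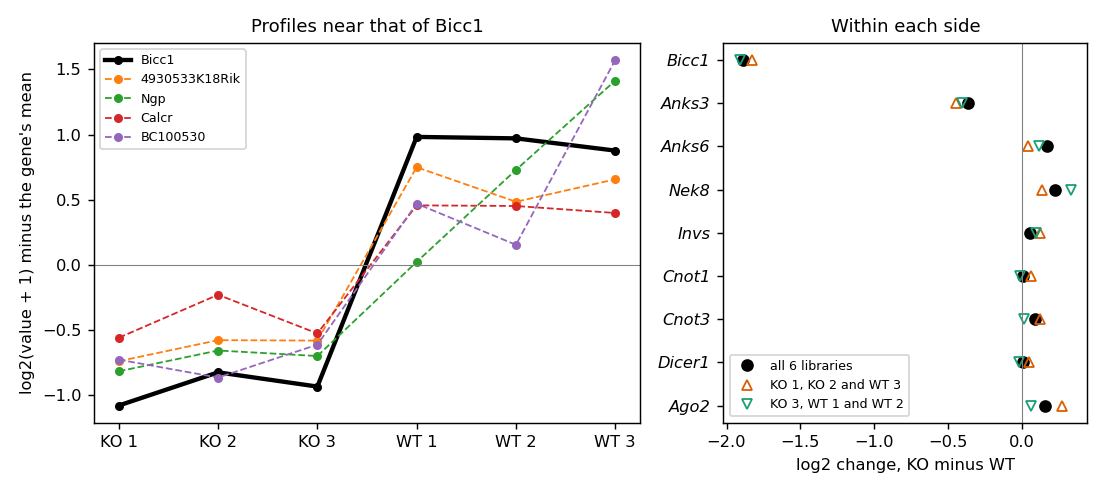
Left, log2(value + 1) minus the gene's own mean in each library, for Bicc1 (solid line) and 4930533K18Rik, Ngp, Calcr and BC100530 (dashed lines), each lower in the KO libraries. Right, the log2 change, KO minus WT, of the 9 genes over all 6 libraries and within each side of the first principal component; Bicc1 keeps -1.83 and -1.91 within the sides, Anks3 -0.45 and -0.40, and Cnot1 and Dicer1 stay near 0.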

How the data were processed

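RNA was made into TruSeq RNA v2 libraries, a kit that does not mark strand, per the labels' protocols. The submitters' processing notes name CASAVA 1.82, Bowtie 0.12.7 and build mm9; the annotation, counting and normalization were not given there or in the labels. What the authors deposited is 1 signal value per gene and library, never negative, whose unit no file header names, so no count test was possible and depth is unknown. Symbols were matched for 22624 identifiers (92.8%). GENCODE M21 (GRCm38) gave names, GC content, exon overlap and 3′ UTRs, and none of its coordinates were used with the files.

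The comparison used limma 3.58.1 (R 4.3.3) on log2 of the value plus 1, for genes averaging at least 1, two-sided, with genotype alone in the model and a mean-variance trend, and with Benjamini-Hochberg adjustment over all tested genes and a threshold of 0.05. Values were not rescaled. Replicates are those of the labels, which do not say whether they are separate embryos, so p-values measure the spread between these samples only.

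Members, lists and tests were chosen with earlier results of these data known. Named genes are the 9 members, the 2 tested genes with the lowest p in each list other than members, list genes under the filter, Pkd2, Adcy6, Pkia, Dand5 and the 5 genes nearest to Bicc1 in pattern, of which 1 is not reported here; others are marked as chosen after their values were seen. Simulated data for KO against WT held 13911 genes, with 200 changed. Changes of 0.5, 1 and 2 log2 units were recovered in 47.8%, 83.6% and 100% of genes, with 9 false calls. The noise was drawn for each gene on its own, without the differences between libraries that many genes share. More genes changed in the simulation than passed in the data, which eases the adjustment. These rates may therefore be too high for the comparison here. Python 3.11.15, pandas 2.3.3 and matplotlib 3.10.9 made tables and figures.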

Additional observations from a re-analysis of the deposited data

How the results depend on the processing

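Every one of 18 alternatives kept Bicc1 lower in KO, with log2 changes from -2.08 to -1.82 (-1.95 to -1.82 when 1 library was left out). With the replicate number as a block its change was the same, -1.89, but the adjusted p was 0.088; with GC correction and block it passed. The labels do not say whether the numbers pair the libraries. Deviations of same-numbered libraries from their group means correlated at -0.22, -0.40 and -0.64 across genes. But KO and WT libraries on the same side of the first component correlated at 0.32 to 0.57, and those on opposite sides at -0.64 to -0.17. The correlations follow these sides, so they cannot decide whether the numbers pair the libraries. The count of genes past the threshold in limma was 2. It was 1 with no filter, 4 after GC correction, 1 with GC correction and block, 0 with the block (656 at an unadjusted p under 0.05) and 1 to 7 when 1 library was left out. At a mean of at least 0.5, a filter chosen after seeing the data, it was 3, and Anks3 and Anks6 had adjusted p of 0.472 and 0.580. The count in the list of messengers tied to Bicc1 was 0, and 1 (Pkd2) after GC correction.

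The adjusted p of 4930533K18Rik was 0.742 with the block and 0.732 with GC correction and block. Directions near 0 were not stable. The median of the ANKS and inversin list was -0.010 after GC correction and -0.0059 without KO 3, and that of the decapping list 0.055 with the first component's sides in the model, 0.014 after GC correction, 0.0275 with no filter and -0.0225 to 0.052 when 1 library was left out. Scaling by median ratios, totals and upper quartiles gave Cnot1 -0.0051, -0.0092 and -0.0114 and Dicer1 -0.0048, -0.0087 and -0.0105. Scaling by totals and upper quartiles gave Dand5 -0.0009 and -0.0022, and adding the first component's sides to the model -0.0020. GC correction, with or without the block, gave Nek7 0.0099, Nek9 -0.0111, Adcy6 -0.034, Pkia 0.039, Dand5 -0.15 and, untested, Anks6 -0.080. Leaving out 1 library gave ranges of -0.015 to 0.085 for Invs, -0.049 to 0.082 for Cnot1, -0.061 to 0.086 for Dicer1, -0.14 to 0.0028 for Nek7, -0.017 to 0.11 for Nek9, -0.0067 to 0.18 for Adcy6, -0.11 to 0.024 for Pkia, -0.023 to 0.12 for Ago3 and -0.024 to 0.027 for Dand5. The causes were not tested. Tests planned for counts were not run, since the files hold none.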
